A study of Drosophila melanogaster with 12 samples.

Results

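Hemocytes, the blood cells of *Drosophila*, carry surface receptors with which they bind microbes and dead cells. The genes described here are 10 receptors and markers of these cells: *eater*, *Hemese* (*He*), *Hemolectin* (*Hml*), *Nimrod C1* (*NimC1*), *Nimrod C4* (*NimC4*), *croquemort* (*crq*), *draper* (*drpr*), *serpent* (*srp*), *Scavenger receptor class C, type I* (*Sr-CI*) and *Prophenoloxidase 1* (*PPO1*). They were chosen by name as a sign of blood cells on the implanted discs, with earlier results of these data known. All 10 were measured, each with 1 probe, among 12058 genes.

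Most larval hemocytes are plasmatocytes, which engulf particles, whereas crystal cells hold the enzymes that blacken wounds. Plasmatocytes reach damaged tissue through the hemolymph and are known to attach to wounded or dying discs, where they remove cell debris. Several engulfment genes are not limited to blood cells, since epithelia and glia also clear corpses with Draper.

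All discs were wing imaginal discs of the isogenic line w1118iso; 2iso; 3iso (printed as w118iso in the sample labels), taken from larvae of the third instar and grown in the abdomen of newly eclosed females of the strain Canton S, which have hemocytes of their own. Intact discs (NC) were compared before and 24 hours after implantation (NC0→NC24). Discs cut to a 3/4 fragment (C), which lacks a posterior sector, were compared over the first 24 hours (C0→C24) and from 24 to 72 hours (C24→C72). Each comparison has 4 two-colour arrays, which hold 2 biological replicates in both dye orientations, and the number of discs in each RNA is not given in the sources used here. The values are log2 ratios, taken as later over earlier time, so they give a change and never a level.

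Direction and log base are not written in the table. The positive correlation of dye-swapped arrays (r across genes from 0.20 to 0.84) shows that they run the same way, and the direction is likely because genes that the study names as rising or falling have the matching sign here. Base 2 is likely because the sizes for several transcription factors listed with the study for C24→C72 are close to those in the table, although *lola*, an average of several probes, is smaller here. No array sets cut against intact discs. The difference between them was therefore taken between the 24-hour changes, cut minus intact, and the RNA of both 0-hour samples enters it. The RNA of cut discs at 24 hours served as reference for both periods, once as the later and once as the earlier time. In whole-disc RNA more hemocytes and more RNA per hemocyte cannot be told apart, nor can RNA of the larval donor be told from RNA of the adult host. Presence of the wing disc itself cannot be read from ratios. Of 20 genes of disc epithelium and patterning 0 were called changed in intact discs, beside 5.14% of all genes that rose and 3.85% that fell. There *nub* had -0.51, short of 1.5-fold. In cut discs 2 of the 20 fell, *nub* (-0.64) and *ara* (-0.63), beside 4.94% of all genes, and 0 rose, beside 6.12%.

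After 24 hours in the host, cut discs carried more RNA of most of these genes, and intact discs more RNA of some. A gene is said to have risen or fallen if limma gave it a Benjamini-Hochberg adjusted p, over all genes, below 0.05 together with a change of 1.5-fold or more. In C0→C24, 8 of the 10 genes rose, beside 6.12% of all genes, and the median of the 10 was 0.86 beside -0.01 for all genes. In NC0→NC24, 4 of the 10 rose, beside 5.14% of all genes, with a median of 0.33. Of the 10, 0 fell in either comparison, beside 3.85% of all genes in NC0→NC24 and 4.94% in C0→C24.

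**Figure D1:**
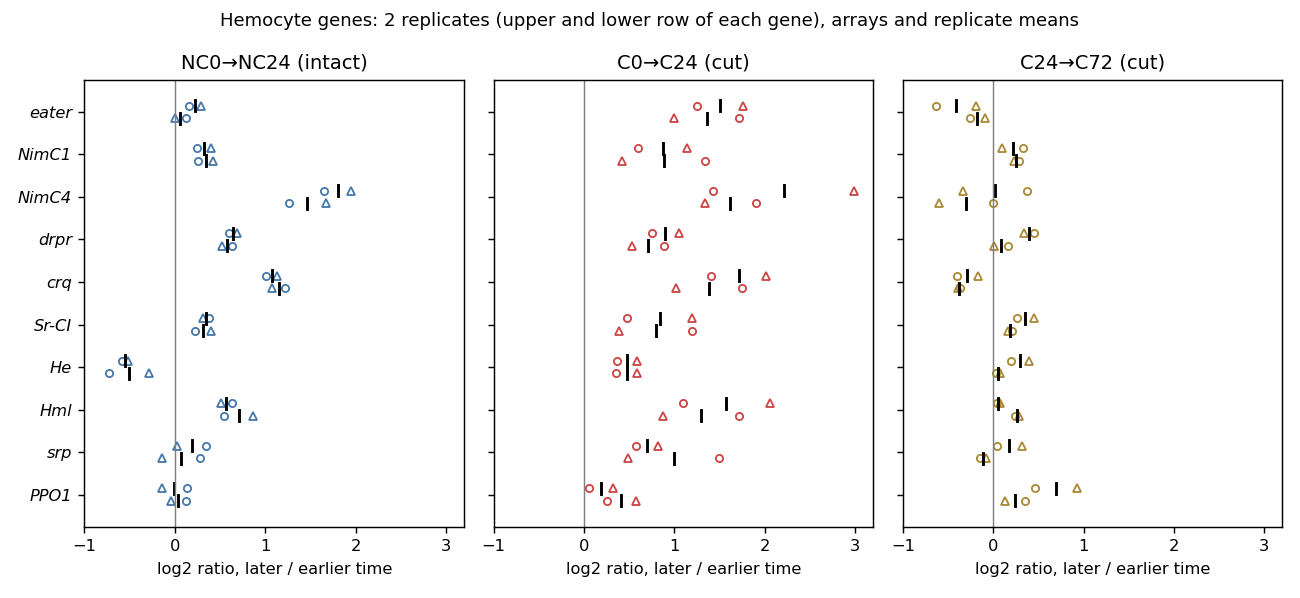
Log2 ratio (later over earlier time, horizontal axis) of the 10 genes in the 3 comparisons. Circles are dye-swap A arrays, triangles dye-swap B arrays, bars the replicate means, with replicate 1 above replicate 2. All 10 genes lie above 0 on all 4 arrays of C0→C24, and 6 of 10 do so in NC0→NC24, beside 22.5% and 22.3% of all genes.

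All 10 genes were above 0 on each of the 4 arrays of C0→C24, a pattern found in 22.5% of all genes. The arrays did not respond to the same extent. The array of replicate 1 in dye-swap B gave the highest value for 5 of the 10 genes alone and for 2 in a tie (*He* and *Sr-CI*), and that of replicate 2 in dye-swap B the lowest for 8. The standard deviation over all genes was also larger on the first of these arrays (0.56) than on the other (0.36). With all arrays scaled to a common standard deviation, an alternative chosen after seeing the data, the count of hemocyte genes that rose in C0→C24 was again 8.

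Receptors for microbes come first. *eater* encodes a phagocytosis receptor of plasmatocytes with many EGF-like repeats, which binds bacteria. In C0→C24 its 4 arrays read 1.25 and 1.76 in replicate 1 and 1.72 and 1.0 in replicate 2. In NC0→NC24 they read 0.16 and 0.29, and 0.12 and 0.00. Every array of cut discs thus lay above every array of intact discs. *eater* rose 2.70-fold in cut discs (1.43 ± 0.10, SD, n = 2, adjusted p = 2.44e-05), whereas its value in intact discs was 0.14 ± 0.12 (SD, n = 2, adjusted p = 0.36).

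*NimC1*, which encodes a plasmatocyte surface protein of the same repeat type that takes part in the uptake of bacteria, had replicate means of 0.87 and 0.88 in cut discs and of 0.33 and 0.34 in intact ones. It rose in cut discs (0.88 ± 0.0071, SD, n = 2, adjusted p = 8.05e-05). In intact discs its change of 1.26-fold had an adjusted p of 0.0143 and stayed short of 1.5-fold. *Sr-CI*, a scavenger receptor gene of hemocytes whose protein binds bacteria, behaved in nearly the same way over the 6 replicate means. Its replicate means were 0.84 and 0.80 in cut discs, a rise (adjusted p = 0.000155), and 0.35 and 0.31 in intact discs (adjusted p = 0.021). Of the 10 genes, *NimC1* and *Sr-CI* lie nearest to each other, at a Euclidean distance of 0.19 over these 6 log2 values.

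The receptors for dead cells among these 10 genes rose in both kinds of disc. *NimC4*, also named *simu*, encodes a receptor that binds phosphatidylserine on apoptotic cells. Its replicate means were 2.21 and 1.62 in cut discs and 1.80 and 1.47 in intact discs, which overlap. It had the largest rise of the 10 genes in both comparisons, 3.77-fold in cut discs (adjusted p = 4.39e-05) and 3.10-fold in intact ones (adjusted p = 0.000158). *crq*, which encodes a receptor of the CD36 family for apoptotic cells, rose 2.92-fold in cut (adjusted p = 2.14e-05) and 2.16-fold in intact discs (adjusted p = 0.00013). Its replicate means were 1.71 and 1.39 against 1.07 and 1.15. *drpr*, the engulfment receptor of glia, epithelia and hemocytes, rose by 0.81 (SE 0.10, adjusted p = 0.000439) and 0.61 (SE 0.10, adjusted p = 0.00245). These 3 genes and *Hml* are those that rose in intact discs. Without replicate 1 of NC0→NC24 *drpr* was no longer called there, and without replicate 2 *Hml* was not.

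*Hml* encodes a large clotting protein of plasmatocytes and crystal cells, and its promoter is widely used to mark differentiated hemocytes. Its replicate means were 1.58 and 1.30 in cut discs against 0.57 and 0.71 in intact discs. The change was 2.70-fold in cut discs (adjusted p = 2.75e-05) and 1.56-fold in intact discs (adjusted p = 0.00201). The groups do not overlap in their replicate means, and on single arrays the 0.87 of the lowest cut array equals that of the highest intact array. *srp* encodes the GATA factor that specifies hemocytes and also acts in the fat body. Its 4 arrays read 0.58, 0.82, 1.49 and 0.49 in cut discs and 0.35, 0.02, 0.28 and -0.14 in intact ones, without overlap. It rose in cut discs (1.80-fold, adjusted p = 0.000479), and in intact discs its value was 0.13 (adjusted p = 0.482).

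*He* encodes a glycosylated transmembrane protein on the surface of larval hemocytes. On the arrays of NC0→NC24 it read -0.59, -0.52, -0.73 and -0.29, and on those of C0→C24 0.37, 0.59, 0.35 and 0.59. It was below 0 on every array of intact discs and above 0 on every array of cut discs, and no other of the 10 genes behaved so. Neither change reached 1.5-fold, with -0.53 (1.45-fold, adjusted p = 0.00268) in intact and 0.48 (1.39-fold, adjusted p = 0.0039) in cut discs. *PPO1*, which encodes a prophenoloxidase of crystal cells, had replicate means of 0.19 and 0.41 in cut discs and -0.005 and 0.04 in intact discs, with adjusted p-values of 0.0983 and 0.942.

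The question whether cutting adds to the change that implantation brings was addressed by the difference between the comparisons. For all 10 genes the estimate of this difference was above 0, as for 47.1% of all genes, with a median of 0.52 beside -0.01. *eater* and *He* were called, 2 of 10 beside 0.0581% of all genes called higher (7 of 12058). *eater* changed by 1.29 more in cut discs (95% interval 0.99 to 1.59, adjusted p = 0.0268), a factor of 2.45 and the 9th largest value among all genes. *He* changed by 1.01 more (95% interval 0.72 to 1.29, adjusted p = 0.0404), a factor of 2.01 and the 24th largest.

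**Figure D2:**
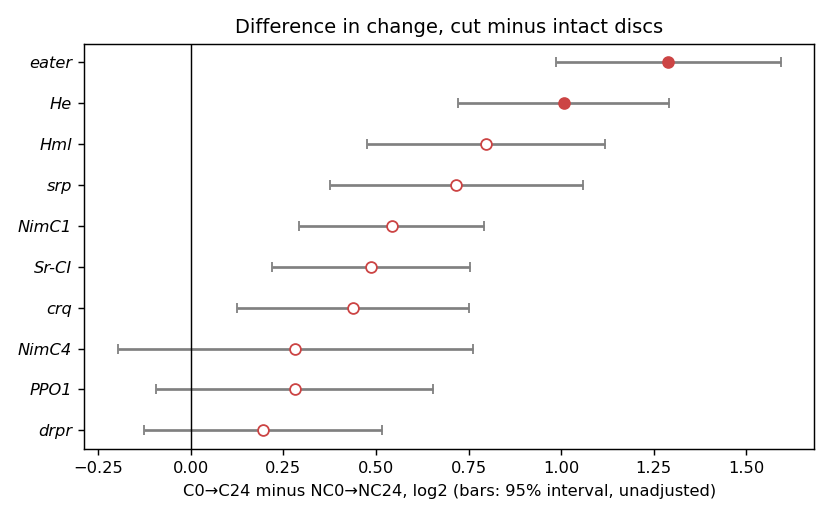
Difference in log2 change between cut and intact discs (C0→C24 minus NC0→NC24, horizontal axis) for the 10 genes, from the limma model. Bars are unadjusted 95% intervals and filled points the genes called among all 12058, *eater* at 1.29 and *He* at 1.01.

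Both calls rest on all 4 replicates of the first 24 hours. Without replicate 1 of C0→C24 the adjusted p was 0.388 for *eater* and 0.475 for *He*, and without replicate 2 it was 0.207 and 0.238. Without replicate 1 of NC0→NC24 it was 0.256 and 0.284, and without replicate 2 it was 0.19 and 0.24. In these fits the lone replicate is assumed to vary like the other groups. In these 4 fits the sizes stayed between 1.21 and 1.37 for *eater* and between 0.98 and 1.03 for *He*. With arrays scaled to a common standard deviation the differences were 1.13 (adjusted p = 0.113) and 0.97 (adjusted p = 0.164). Over all alternatives the adjusted p ran from 0.00656 to 1 for *eater* and from 0.00666 to 1 for *He*. The lowest for *eater* came with genes of low spread left out. That spread was taken over all 12 arrays, so the filter depends on the difference itself. The lowest for *He* came with each array as a replicate, which counts dye-swapped arrays of the same RNA as replicates.

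The other 8 genes were not called, although 7 of the 10 had an unadjusted p under 0.05 in this direction, beside 3.05% of all genes. *Hml* differed by 0.80 (95% interval 0.48 to 1.12, adjusted p = 0.118) and *srp* by 0.72 (0.38 to 1.06, adjusted p = 0.196). *NimC1* differed by 0.54 (0.29 to 0.79), *Sr-CI* by 0.49 (0.22 to 0.75) and *crq* by 0.44 (0.12 to 0.75), with adjusted p-values from 0.182 to 0.529. For these 5 genes the unadjusted interval lies above 0. For *NimC4* (0.28, interval -0.20 to 0.76), *PPO1* (0.28, interval -0.09 to 0.65) and *drpr* (0.20, interval -0.13 to 0.52) it holds 0 and does not show that cut and intact discs changed alike.

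In replicate means, both values of cut discs lay above both values of intact discs for 9 of the 10 genes, all but *NimC4*, beside 17.1% of all genes. On single arrays this held for *eater*, *He* and *srp*, 3 of 10 beside 2.53%.

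**Figure D3:**
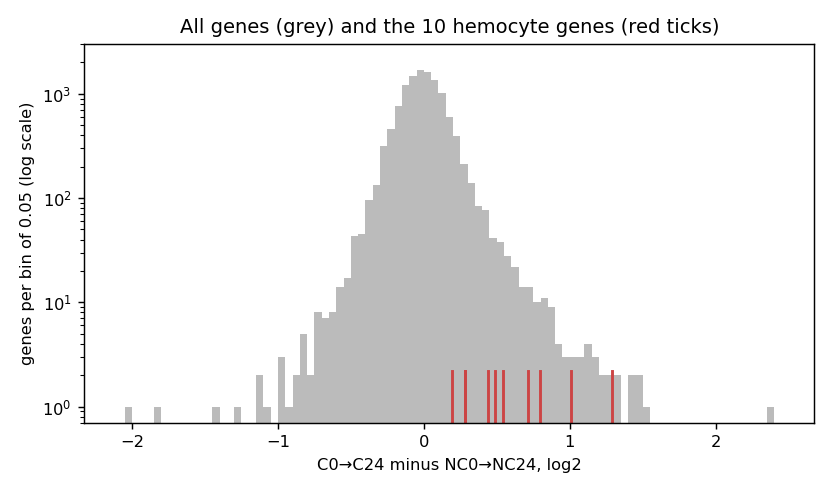
Histogram of the difference in log2 change between cut and intact discs for all 12058 genes (grey, number of genes on a log axis), with red ticks at the 10 hemocyte genes. All 10 ticks lie to the right of 0, from 0.20 for *drpr* to 1.29 for *eater*.

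Genes of the larval fat body, a tissue bathed in the same hemolymph, were above 0 in C0→C24 and in the difference, like the hemocyte genes. Of 6 fat body genes measured, 4 rose in C0→C24 (values from 0.13 to 1.97), beside 6.12% of all genes, and 1 in NC0→NC24 (from -0.39 to 0.97), beside 5.14%, where 3 of 6 were above 0. *Lsp2*, a storage protein gene, rose by 1.97 in cut discs, a call that was lost without either replicate of C0→C24 (adjusted p = 0.0813 and 0.0829). In intact discs its replicate means had opposite signs, -1.42 and 0.64, and without replicate 1 or 2 of NC0→NC24 its difference between cut and intact discs was 1.33 or 3.38 instead of 2.36. *apolpp*, which encodes the main lipoprotein of the hemolymph, rose by 1.86 in cut discs, beside replicate means of -0.05 and 0.90 in intact discs. *Fbp2*, a larval fat body gene, rose by 0.92 beside -0.15. The difference between cut and intact discs was above 0 for all 6, beside 47.1% of all genes, with a median of 1.03. Of the 6, 1 was called, *fat-spondin* (0.99, adjusted p = 0.0404), beside 0.0581% of all genes called higher. Like *eater* and *He*, *fat-spondin* was not called when any one replicate of the first 24 hours was left out (0.90 to 1.07). Genes of the adult female host, such as yolk proteins, had differences from -0.44 to 0.03 in 8 genes, and genes of muscle from -0.36 to 0.37 in 11. In either list 0 were called, beside 7 of 12058 genes called higher and 2 lower. Whether fat body, host or muscle RNA has a part in the values of the hemocyte genes was not tested.

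Between 24 and 72 hours the ratios of the hemocyte genes were small. In C24→C72, 0 of 10 genes were called beside 2.94% of all genes, and the median was 0.17 beside 0.03. At an unadjusted p under 0.05 there were 6 of 10, beside 25.7% of all genes. On all 4 arrays 6 of the genes were above 0 (*He*, *Hml*, *NimC1*, *drpr*, *Sr-CI* and *PPO1*), beside 16.8% of all genes, and *eater* and *crq* were below 0, beside 11.4%. *eater* had replicate means of -0.41 and -0.18 (adjusted p = 0.0939) and *crq* of -0.29 and -0.38 (adjusted p = 0.0696). *NimC4* and *srp* had replicate means of opposite sign, 0.02 and -0.30 for the former and 0.18 and -0.12 for the latter. Dye-swapped arrays correlate at only 0.20 and 0.44 across genes in this comparison, against 0.69 to 0.84 in the others. Genes of the female host ran from -0.03 to 1.86 in this comparison, where 1 of 8 rose, beside 164 of 12058 genes. It was *Vm34Ca* of the egg covering (0.63, adjusted p = 0.0142), which was not called without either replicate of C24→C72. The yolk protein genes *Yp1* and *Yp3* had 2.10 and 3.30 in replicate 1 and 0.17 and 0.42 in replicate 2, so that replicate 1 stood apart, and both rose where replicate 2 was left out. Whether host RNA has a part in the values of this period was not tested.

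*PPO1* came nearest to a rise in this period. Its arrays read 0.46 and 0.93 in replicate 1 and 0.35 and 0.13 in replicate 2, and the mean of 0.47 had an adjusted p of 0.0411 at 1.38-fold. Without replicate 2 of C24→C72 it was called, and without replicate 1 it was not. The higher replicate is that with the high yolk protein values, whose part in it was not tested. *PPO2*, the other prophenoloxidase gene of crystal cells, rose by 0.96 in C24→C72 (adjusted p = 0.00341) after 0.07 in C0→C24. *lozenge* (*lz*), which encodes the Runx factor of crystal cells, had 0.12 in C24→C72.

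Over the whole 72 hours all 10 genes rose in cut discs, beside 9.43% of all genes. The values are sums of both periods in the same model, in which the 24-hour RNA appears on both sides, and they share the arrays of C0→C24. They ran from 0.65 for *He* (adjusted p = 0.00539) and 0.77 for *PPO1* to 1.59 for *Hml* and 1.78 for *NimC4*, with a median of 1.10. The fitted value at 72 hours was above that at 24 hours for 7 of the 10 genes, all but *eater*, *crq* and *NimC4*, beside 6706 of 12058 genes. This count is the sign of C24→C72, where *srp* had 0.03 with replicate means of opposite sign. Without replicate 1 of C24→C72, *He* and *PPO1* were no longer called over 72 hours, and without replicate 2 of C0→C24, *PPO1* was not. At 72 hours *eater* was at 1.14, *crq* at 1.22 and *srp* at 0.88 above the start.

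**Figure D4:**
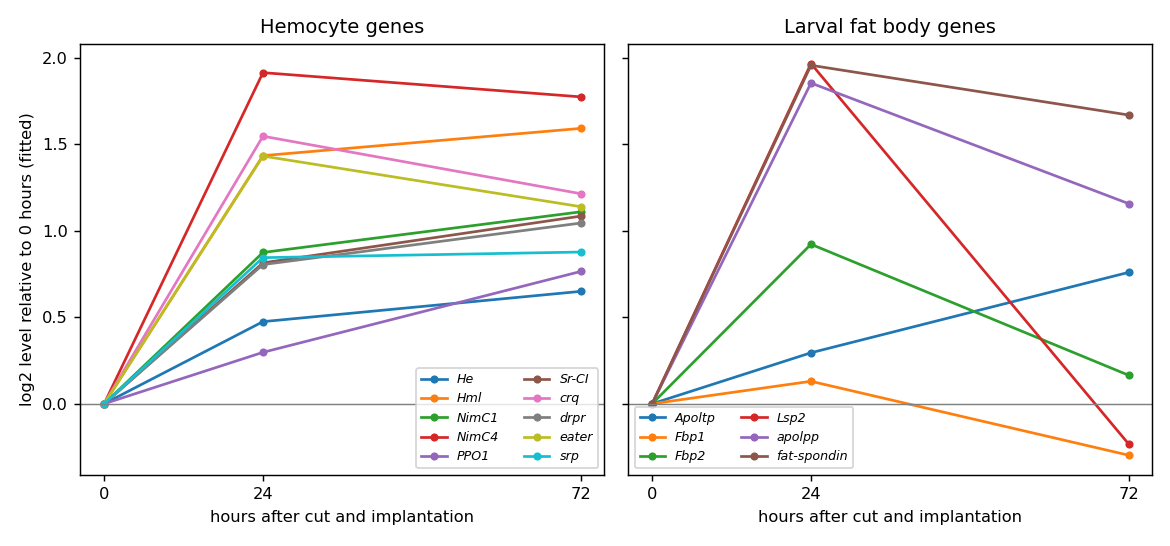
Fitted log2 level relative to 0 hours at 3 times (0, 24 and 72 hours) after cutting and implantation, for the 10 hemocyte genes (left) and 6 larval fat body genes (right). All 10 hemocyte genes lie between 0.65 and 1.78 at 72 hours, while *Lsp2* goes from 1.97 at 24 hours to -0.23.

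In C24→C72 1 of the 6 fat body genes and 7 of the 10 hemocyte genes had values above 0, beside 6706 of 12058 genes. *Lsp2* fell by 2.2 (adjusted p = 0.00913, but 0.0816 without replicate 1 of C24→C72) and *Fbp2* fell by 0.76 (adjusted p = 0.00489), while *apolpp* had -0.70 (adjusted p = 0.0552). Over 72 hours 3 of the 6 rose, beside 9.43% of all genes. *fat-spondin* was at 1.67, *apolpp* at 1.16 and *Apoltp* at 0.76. The call of *apolpp* was lost without replicate 1 of C0→C24 or of C24→C72. *Lsp2* was at -0.23 and *Fbp2* at 0.17, with adjusted p-values of 0.797 and 0.488, and *Fbp1* was at -0.30. The difference in course between the groups of genes was not tested.

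Other genes known from hemocytes were less uniform. Among 30 such genes there were 6 that rose and 1 that fell in cut discs over 24 hours, and 3 that rose in intact discs, beside 6.12%, 4.94% and 5.14% of all genes, with medians of 0.01 and -0.03. Those with the smallest adjusted p in C0→C24 were *Nplp2* (4.04 in cut, 2.56 in intact discs), *Tep3*, which encodes a thioester-containing protein (1.40 and 1.02), *Col4a1*, a collagen IV chain of basement membranes (1.92 and 1.04), and *vkg*, the other chain (1.01 and 0.52, the latter not called). Collagen IV is also made by the fat body. In C24→C72 *Nplp2* fell by 1.04 (adjusted p = 0.04) and *Col4a1* fell by 0.75 (adjusted p = 0.0176), and neither was called without either replicate of that comparison. *Pvr*, the receptor that guides hemocytes in the embryo and also acts in disc epithelium, fell (-0.65), except without replicate 1 of C0→C24 (-0.57). *Peroxidasin* (*Pxn*), a matrix enzyme gene of hemocytes, had 0.17 and 0.08, and *atilla*, a marker of lamellocytes, 0.08 and -0.09. In the difference 0 of the 30 were called, beside 7 of 12058 genes called higher and 2 lower, with *Nplp2* highest at 1.48 (adjusted p = 0.271).

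*He*, *NimC1* and *NimC4* lie in one stretch of chromosome 2L that holds 10 genes of the Nimrod family in 18 protein-coding genes from *NimA* to *NimC4*. *He* lies between *NimB5* and *NimC1*. Of the 9 Nimrod genes measured, *NimB5*, *NimC1* and *NimC4* rose in cut discs, and in intact discs *NimC4* alone did, beside 6.12% and 5.14% of all genes. *NimB5* was not called without replicate 2 of C0→C24 (0.51). *NimB5* and *NimB2*, which encode secreted proteins, changed by 0.60 (adjusted p = 0.00108) and 0.49 (adjusted p = 0.00286, short of 1.5-fold) in cut discs, beside 0.08 and -0.04 in intact discs. Of the 6 measured genes of the stretch that are neither Nimrod genes nor *He*, 0 rose in either. *NimA* and *NimC3* had values between -0.12 and 0.04 in these comparisons. Over the 72 hours of cut discs 6 of the 9 Nimrod genes rose, which adds *NimB2* (0.71), *NimB4* (0.90) and *NimC2* (0.59) to *NimB5*, *NimC1* and *NimC4*, beside 9.43% of all genes. *NimB4*, *NimB5* and *NimC2* each lost this call without at least 1 replicate of cut discs (for *NimB4* and *NimC2* replicate 1 of C0→C24, for *NimC2* also replicate 1 of C24→C72, and for *NimB5* replicate 2 of either). Of the other 6 genes 1 rose, *CG18095* (0.69, adjusted p = 0.00538).

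**Figure D5:**
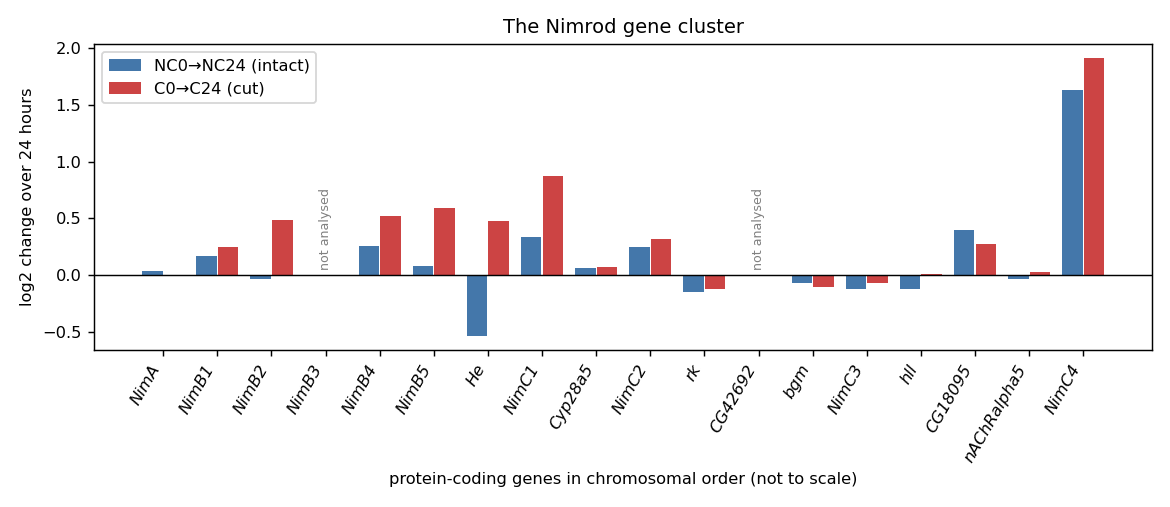
Log2 change over 24 hours (vertical axis) in intact (blue) and cut discs (red) for 18 neighbouring protein-coding genes, in chromosomal order and not to scale. *NimC4* is high in both, and *He* is below 0 in intact and above 0 in cut discs.

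The machinery that acts with these receptors did not move as a group. Of 8 genes measured, 1 rose, 1 fell and 6 were not called in each kind of disc. Of all genes 6.12% rose and 4.94% fell in C0→C24, and 5.14% and 3.85% in NC0→NC24. *Shark*, which encodes the kinase that acts below Draper, rose in both kinds of disc (0.80 in intact, 0.64 in cut discs). *prtp*, a ligand of Draper and a folding factor of the endoplasmic reticulum, fell in both (-1.02 and -1.48). *ced-6*, which encodes the adaptor of Draper, had 0.13 and 0.15. Of 12 genes of the CD36 family other than *crq*, 1 rose in C0→C24, *CG3829* (0.60, not called without replicate 1 of C0→C24), beside 6.12% of all genes, and 0 in NC0→NC24, beside 5.14%.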

How the data were processed

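Two-colour oligonucleotide arrays were normalized by the authors with the mad method of OLIN, independently for each set of 4 arrays, and analysed by them with limma (version not given in the sources used here). The deposited values, taken as log2 ratios, cover 16416 features on 12 arrays, with no intensities used here. Symbols were updated through the Release 6 RefSeq table, for names and gene order alone, and 13164 features with 1 symbol (12533 matched by gene identifier, 120 by accession, 511 kept as given) were averaged to 12058 genes. Dye-swapped arrays share amplified RNA and were averaged, since they are technical. One linear model of the 6 resulting values, with the 3 comparisons as groups, was fitted in R 4.3.3 with limma 3.58.1 (residual degrees of freedom 3, with a further 5.64 from moderation). Replicates are separate RNA extractions, and their number limits every p-value here. Steps were tested on simulated data. Members and gene lists were chosen with earlier results of these data known. All members were named, with up to 4 called genes per other list by adjusted p and the 5 genes nearest to *eater* and *He*. *Pxn*, *Pvr*, *atilla*, *lz* and *ced-6* were named after their values were seen, as were single fat body and yolk protein genes. Alternatives changed the threshold, block, scaling, dye treatment, moderation, filter and replicates. The replicate numbers were not taken as pairs, since deviations of intact and cut discs with the same number correlate at -0.12.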

Additional observations from a re-analysis of the deposited data

Results flagged for a closer look

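The difference between cut and intact discs was called by its own test for *eater* (1.29, adjusted p = 0.0268) and *He* (1.01, adjusted p = 0.0404). For *He* all 4 arrays of intact discs were below 0 and all 4 of cut discs above 0. The call was kept in 11 of 21 alternatives for *eater* and in 9 of 21 for *He*. These include the 2-fold threshold and no fold threshold, which reuse the same fit and adjusted p. They also include the fits without a replicate of C24→C72, which keep every array of the difference, and the fits to single arrays. The tally is therefore no measure of how firm the calls are. Both genes lost the call when any one replicate of the first 24 hours was left out. They also lost it with treat, with either replicate block, with a common standard deviation and with the arrays of either dye orientation alone.

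Of 30 sets of 4 arrays, a gene in a comparison each, 1 held an array that stood apart, *crq* in C24→C72, where the gap of the highest array to the next was 0.87 of the whole range. Its arrays read -0.17 against -0.37, -0.39 and -0.40. Chance gives about 5% of such sets, and arrays with swapped dyes are not independent samples.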

How the results depend on the processing

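The number of arrays and the log-ratio scale limit what can be said, since no signal over background was available here. Of 1080 single values under the alternatives, 1013 kept sign and side of the threshold, 51 lost a call, 8 gained one and 8 changed sign. In C0→C24 the count of hemocyte genes called went from 8 to 4 at 2-fold and 4 with limma's treat. In NC0→NC24 it went from 4 to 2 at 2-fold, 2 with treat and 7 with no fold threshold, of which *He* is lower. In C24→C72 it went from 0 to 1 with no fold threshold (*PPO1*) and was 0 to 1 without single replicates. Over 72 hours treat left 6 of 10. The share of all genes called also changes with the setting and is not given here, so counts under the alternatives have no background beside them. Without single replicates the counts were 3 to 4 in NC0→NC24, 8 in C0→C24 and 8 to 10 over 72 hours. Fits of single comparisons on replicate means give no value for the difference or the sum.

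In the difference between cut and intact discs the 2 calls became 0 with treat, 0 with arrays scaled to a common standard deviation (chosen after seeing the data), 1 with arrays centred on their medians, 1 with each probe as a feature (*eater* both times), and 0 with dye-swap A or 0 with dye-swap B arrays alone. Without single replicates it was 0 to 2. The replicate block left 0 of 2 (adjusted p = 0.0737 for *eater* and 0.0809 for *He*), though the numbers share no known pairing, and a crossed replicate block, with numbers exchanged in intact discs and chosen after seeing the data, left 0. Apart from the difference the replicate block changed no count. The cause of these losses was not tested. A replicate left out or a further term leaves fewer degrees of freedom, which holds for only some of these alternatives.

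Values near 0 changed sign. *NimC4* in C24→C72 was 0.185 with dye-swap A arrays and ran from -0.3 to 0.02 without single replicates, and its difference between cut and intact discs ran from -0.0125 (without replicate 1 of C0→C24) to 0.5775. *PPO1* in NC0→NC24 was -0.09 with dye-swap B arrays and ran from -0.005 to 0.04 without single replicates. *srp* was -0.06 with dye-swap B arrays in NC0→NC24, and in C24→C72 it was -0.055 with dye-swap A arrays and ran from -0.115 to 0.18 without single replicates.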

Other observations

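Genes of clotting and melanization, which act with hemocytes at wounds, were mixed. Of 13 measured, 3 rose in C0→C24 and 2 in NC0→NC24, beside 6.12% and 5.14% of all genes. *fondue* (*fon*), which encodes a clot protein, rose by 1.39 in cut discs and fell by 1.15 in C24→C72, beside 0.50 in intact discs. *Hayan*, a serine protease gene of the melanization cascade, rose by 0.85 in cut and 0.93 in intact discs. *ple*, which encodes tyrosine hydroxylase, rose by 1.43 and 0.91 and fell by 1.28 in C24→C72, where its replicate means were -0.58 and -1.98. Each of these calls of *ple* was lost without 1 replicate or more, the first without either replicate of C0→C24, the second when any one replicate of the first 24 hours was left out, and the third without replicate 2 of C24→C72 (-0.58) or either replicate of C0→C24. In the difference between cut and intact discs 0 of 13 were called, beside 7 of 12058 genes called higher and 2 lower, with *fon* at 0.89 (adjusted p = 0.067).

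The genes nearest to *eater* by Euclidean distance over the 6 replicate means were *Cpr97Eb* (0.54), *Cpr49Ah* (0.66), *CG32407* (0.71), *Cpr35B* (0.76) and *CG14629* (0.77), of which 3 belong to a cuticle protein family and none to the hemocyte lists. Between cut and intact discs these genes differed by 0.69 for *Cpr35B* up to 1.34 for *Cpr49Ah*, beside 1.29 for *eater*. Those nearest to *He* were *aos* (0.64), *fdl* (0.68), *CG1208* (0.69), *CG13561* (0.70) and *CG18228* (0.70). Their differences between cut and intact discs run from 0.34 for *CG13561* to 0.61 for *CG1208*, below the 1.01 of *He*.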
